A study of Arabidopsis thaliana with 8 samples.

Results

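Young inflorescence stems of SND2-OV(A), an Arabidopsis line that overexpresses the NAC transcription factor SND2, were compared with wild type stems of the same age on 2-colour Agilent arrays. The arrays used here are those whose labels give transgenic line A against wild type at 4 weeks, which are 4 of the 8 arrays of the series. They hold 3 of its 6 biological replicates, because the RNA of replicate 1 was put on 2 arrays in opposite dye orientations. The line was labelled with Cy3 in replicate 2 and with Cy5 in replicate 3. Each of the 37685 probes therefore gave 3 log2 ratios of the line over the wild type, after the 2 arrays of replicate 1 had been averaged. The other 4 arrays compare the same line and wild type at 8 weeks.

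Both genotypes were Col-0, were grown under long days and were sampled as primary inflorescence stems. The methods state that RNA came from the lower part of these stems, which at 4 weeks were short, so that the young samples took in most of the stem. In SND2-OV(A) the coding sequence of SND2 is driven by the double CaMV 35S promoter of pMDC32, which is active in nearly all tissues and not in fibres alone. The line is a single homozygous T4 line, which the study picked from 3 because its CesA8 transcript was raised. Each sample was a pool of plants. The sample labels state hygromycin selection for the transgenic seedlings, whereas the methods state that none was applied to the 4-week plants. A stem holds epidermis, cortex, phloem, cambium, xylem, fibres and pith in one extract, so that fewer cells of a type and less transcript per cell cannot be told apart.

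SND2 belongs to the NAC family and acts in the gene network that switches on the secondary cell wall in xylem fibres. SND1 and related NAC proteins stand at the top of this network, MYB proteins and further NAC proteins such as SND2 lie below them, and the enzymes that make cellulose, xylan and lignin lie at its end. In the Arabidopsis inflorescence stem the interfascicular fibres and the xylem thicken their walls as the stem matures, first at the base, which is the oldest part.

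Genes could be assigned to 7628 of the 37685 probes. An annotation table named 7440 of them without regard to their values, and the study's lists of changed genes named a further 188, of which 20 stood in its list for 4 weeks alone and 12 in its lists for both ages. Genes in the list for 4 weeks were selected on these same arrays, so that their size at 4 weeks is not independent evidence. Genes in the list for 8 weeks alone were selected on other arrays. The remaining 30057 probes could not be given a gene, and the counts over named genes do not cover them.

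The 4 arrays differed in shape. Their medians lay between -0.07 and 0.06. The Cy3 array of replicate 1, named for the dye of the line, held 2759 probes more than 2-fold lower in the line and 92 more than 2-fold higher, whereas the Cy5 array of replicate 3 held 35 lower and 2023 higher. Over all probes the Pearson correlation between the 2 arrays of replicate 1, which share their RNA, was 0.06. Arrays of the same dye orientation correlated at 0.13 and 0.11 across replicates, and arrays of opposite orientation from different replicates at -0.22, -0.18 and -0.16. Among the 571 probes whose mean was more than 1.5-fold lower, replicate 1 lay farthest from 0 for 70.2%, and among the 396 whose mean was more than 1.5-fold higher, replicate 3 lay farthest for 90.9%. Because the dye differs between replicates 2 and 3, a value that agrees on all 4 arrays agrees across both dye orientations. Named genes were therefore chosen among those with one sign on all 4 arrays, and the value of each array is given. The deposited values are ratios without intensities, so that brightness against the background cannot be judged and the number of arrays limits the precision.

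No probe passed an adjusted p under 0.05 together with a fold change over 1.5 at 4 weeks (limma with Benjamini-Hochberg adjustment over 37685 probes, 0% called in either direction). The smallest adjusted p was 0.37. At an unadjusted p under 0.05 there were 134 probes with a higher mean (0.356%) and 240 with a lower mean (0.637%). In consequence no gene below is described as changed by that test, and the values are given as measured. The study, also with limma at a false discovery rate below 0.05, listed 45 probes at 4 weeks and 223 at 8 weeks. Its methods do not state how the dye-swapped arrays entered that fit, and the disagreement was not examined further. One sign in all 3 replicates together with a mean fold over 1.5 was found for 133 probes above 0 (0.353%) and for 204 below 0 (0.541%). One sign on all 4 arrays together with a mean fold over 1.5 was found for 63 probes above 0 (0.167%) and for 125 below 0 (0.332%). Of these, 24 and 23 had a gene name (0.315% and 0.302% of named probes). The study's list for 4 weeks, selected on these arrays, holds 20 of the 24 and 11 of the 23, so that the named shares are not a result. Among probes named by the annotation the shares were 0.0806% and 0.215%.

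SND2 itself had the highest mean of all 37685 probes. Its log2 ratios were 3.00 and 2.95 on the 2 arrays of replicate 1, 2.75 in replicate 2 and 3.37 in replicate 3. The mean was 3.03 ± 0.32 (SD, n = 3), an 8.18-fold higher signal in the line, with an adjusted p of 0.41 over all probes. The probe thus read far above 0 on every array, in both dye orientations. At 8 weeks the same probe had log2 ratios of 7.25, 5.23 and 7.60 in the 3 replicates and a mean of 6.69 ± 1.28 (SD, n = 3). The study describes the 8-week signal of this probe as saturated, so that its 8-week ratio probably understates the difference. Every replicate at 4 weeks lay below every replicate at 8 weeks, and the difference of -3.66 between the ages had an adjusted p of 1 in a limma fit of both ages.

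AT1G20120, which the annotation describes as a family II extracellular lipase of the GDSL type, had the second highest mean. Its log2 ratios were 3.31 and 2.63 in replicate 1, 2.91 in replicate 2 and 2.21 in replicate 3, with a mean of 2.70 ± 0.42 (SD, n = 3). This is a 6.48-fold higher signal in young SND2-OV(A) stems, close in size to that of SND2 itself at this age. The same gene had a mean of 2.35 ± 0.73 at 8 weeks (SD, n = 3), so that its ranges at the ages overlap while that of SND2 does not. AT5G11410, a protein kinase, had log2 ratios of 1.69 and 1.25 in replicate 1, 1.46 in replicate 2 and 1.03 in replicate 3. Its mean of 1.32 ± 0.25 (SD, n = 3) lay beside 1.52 ± 0.37 at 8 weeks. For both genes every array of either age was above 0.

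GMI1, NAC103 and BIN4, genes with roles in DNA repair or in responses to DNA damage that were set together after their values were seen, were above 0 on every array. GMI1, a protein related to cohesin components that acts in homologous recombination in somatic cells after DNA damage, had log2 ratios of 0.89 and 1.00 in replicate 1, 0.91 in replicate 2 and 0.94 in replicate 3. Its mean was 0.93 ± 0.02 (SD, n = 3), or 1.91-fold. NAC103, a NAC protein of the unfolded protein response and of DNA damage signalling, had 1.1, 1.06, 0.62 and 0.59 on the same arrays in that order, with a mean of 0.77 ± 0.27. BIN4, a component of the plant topoisomerase VI complex that is needed for endoreduplication, had 0.87, 0.68, 0.57 and 0.67 and a mean of 0.67 ± 0.10. None of the 3 was close to the threshold over all probes (adjusted p = 1 for each). At 8 weeks their means were 1.04 for GMI1, 1.02 for NAC103 and 1.35 for BIN4, and all 3 replicates of each were above 0. All 3 are named here through the study's lists for both ages, so that their values at either age had been selected, and no list of these processes was tested.

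Further genes above 0 on all 4 arrays were of varied roles. HO3, a haem oxygenase of the pathway that makes the phytochrome chromophore, had a mean of 0.75 ± 0.39 (SD, n = 3) and values from 0.32 to 1.06 on the 4 arrays. AT3G55920, a cyclophilin, had a mean of 0.96 ± 0.61, in which replicate 2 at 1.66 stood apart from the other arrays at 0.51 to 0.71. Its neighbour in gene order AT3G55910, added after its values were seen, had a mean of 0.53 ± 0.26. FAR6, a fatty acyl reductase that makes primary alcohols, had 0.51, 0.29, 1.81 and 0.65, and a mean of 0.96 ± 0.75. AT5G22490, which carries an acyltransferase domain of the wax ester synthase type, showed the same order of arrays with 0.62, 0.13, 1.51 and 0.76. Replicate 2 was the highest for both of these lipid genes, and at 8 weeks neither kept one sign, with means of -0.20 for FAR6 and -0.37 for AT5G22490. LPR1, a ferroxidase of the phosphate starvation response in roots, had a mean of 0.88 ± 1.02 that rested on replicate 3 at 2.04, against 0.06, 0.20 and 0.47 on the other arrays. AT2G47050, an invertase or pectin methylesterase inhibitor family protein, had a mean of 0.81 ± 0.31. The uncharacterized AT3G25597, AT5G64910 and AT1G30475 had means of 0.86, 0.77 and 0.75.

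**Figure D1:**
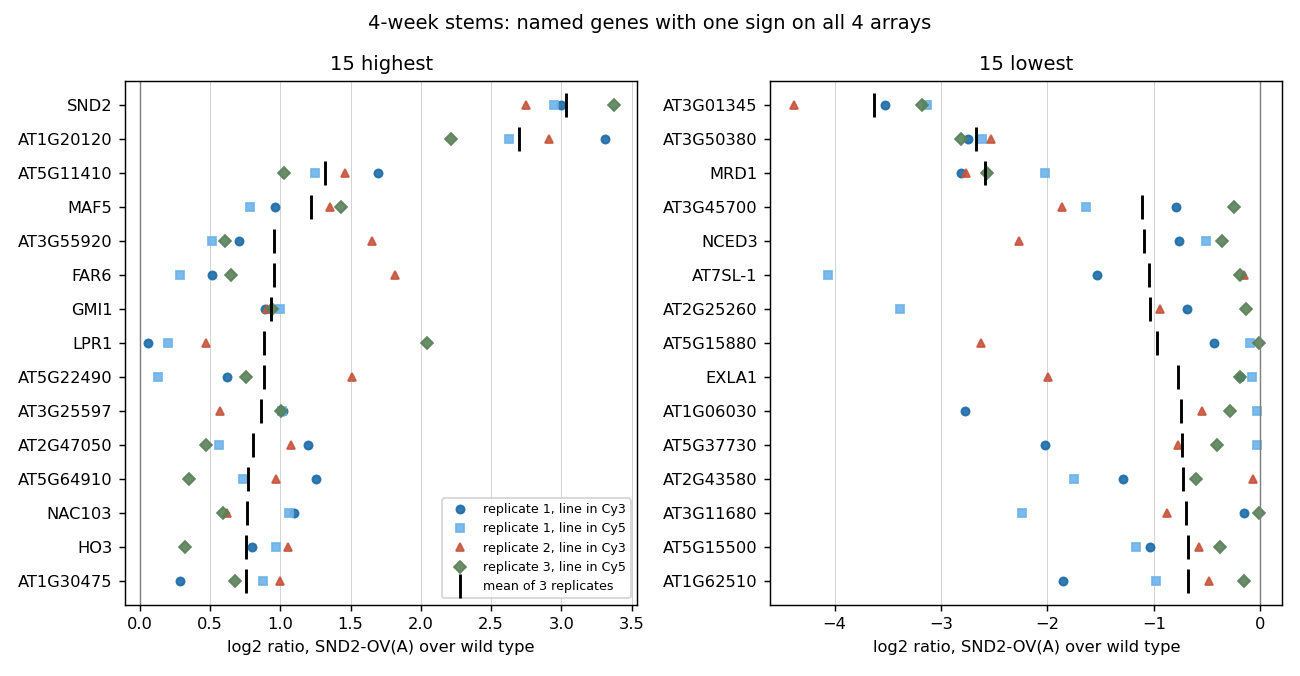
Log2 ratios of the line over the wild type in 4-week stems on each of the 4 arrays (points) and their mean over 3 replicates (black bars), for the 15 highest (left) and 15 lowest (right) named genes with one sign on all arrays. The points of SND2, GMI1, MRD1 and AT3G50380 lie close together, whereas the means of LPR1, AT7SL-1 and AT5G15880 rest on 1 replicate or array.

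The 3 lowest genes stood far apart from the rest. AT3G01345, annotated as an expressed protein, had log2 ratios of -3.53 and -3.13 in replicate 1, -4.38 in replicate 2 and -3.18 in replicate 3. Its mean of -3.63 ± 0.66 (SD, n = 3) was the lowest of all probes, a 12.4-fold lower signal in the line. AT3G50380, a large protein without an assigned function in the annotation, had -2.74, -2.62, -2.53 and -2.81 on the same arrays and a mean of -2.68 ± 0.14. MRD1, named for its lower transcript in the methionine-overaccumulating mutant mto1, had -2.81, -2.02, -2.76 and -2.57 and a mean of -2.58 ± 0.17. AT3G50380 and MRD1 had the smallest adjusted p of the whole table (0.37 for each). With the spread estimated from both ages in one limma fit, these 2 genes and no other probe passed (adjusted p = 0.034 for each). With probes averaged per gene over 7418 named genes they passed in limma together with SND2 (adjusted p = 0.021, 0.021 and 0.025). MRD1 and SND2 carry names only through the study's lists for both ages, and AT3G50380 stands in both lists. The set of 7418 thus holds MRD1 and SND2 through selection, and their passing there is not independent evidence. At 8 weeks the 3 lowest genes had means of -2.88, -2.22 and -2.37, and every array of both ages was below 0.

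HEI10, a RING finger protein that promotes meiotic crossovers, lies next to MRD1 in the gene order of chromosome 1. One of its 2 named probes had -0.65 and -0.67 in replicate 1, -0.66 in replicate 2 and -0.63 in replicate 3, with a mean of -0.65 ± 0.01 (SD, n = 3). The other had -1.17, -0.54, -1.52 and 0.28 and a mean of -0.70 ± 0.91, so that the probes gave a like mean and a very different spread. Even and low values were also found for AT2G14870 (mean -0.67 ± 0.10), AT5G03090 (-0.62 ± 0.10) and AT5G08050 (-0.64 ± 0.13). RPL15, a protein of the large ribosomal subunit of plastids, had a mean of -0.63 ± 0.16. All 3 replicates at 8 weeks were below 0 for the even probe of HEI10 and for each of the other genes. RPL15 has its name through the study's list for 8 weeks alone. It is described here for its low moderated t at 4 weeks, so that its 4-week values were selected as well.

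Some other low means rested on single arrays. AT7SL-1, the RNA of the signal recognition particle, had a mean of -1.05 ± 1.51 with -4.06 on the Cy5 array of replicate 1, against -1.53 on the Cy3 array of the same RNA and -0.16 and -0.19 in the other replicates. AT2G25260 had -3.38 on that same Cy5 array and -0.69 on its Cy3 partner. AT1G06030 and AT5G37730 had -2.77 and -2.03 on the Cy3 array of replicate 1 and -0.03 and -0.03 on its Cy5 partner. For these 4 genes the dye-swapped arrays of one RNA lay between 1.99 and 2.74 apart on the log2 scale, against a median of 0.26 over all probes. The next genes were low on more than one array. AT3G45700, a member of the nitrate and peptide transporter family, had -0.80, -1.64, -1.87 and -0.25 and a mean of -1.11 ± 0.81. AT5G15500, an ankyrin repeat protein, had -1.03, -1.17, -0.58 and -0.38 and a mean of -0.69 ± 0.37, and at 8 weeks it was below 0 in all 3 replicates.

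A pair of flowering genes stood above 0 together. MAF4 and MAF5 are MADS box repressors of flowering of the FLC clade and lie side by side on chromosome 5. MAF5 had log2 ratios of 0.96 and 0.79 in replicate 1, 1.35 in replicate 2 and 1.43 in replicate 3, with a mean of 1.22 ± 0.30 (SD, n = 3), or 2.33-fold. MAF4 had 0.84, 0.70, 0.78 and 0.39 and a mean of 0.65 ± 0.22, or 1.57-fold. Both genes were above 0 on every array at 4 weeks. At 8 weeks MAF5 had 0.51, -0.01 and 0.31 in the 3 replicates and MAF4 had 0.36, 0.42 and -0.34. The ranges of MAF5 at the ages do not overlap, and the difference of 0.95 had an unadjusted p of 0.0038 in limma and an adjusted p of 1. The other 4 listed members of the clade, FLC and MAF1 to MAF3, had no named probe. GI, a clock gene that promotes flowering and the only measured gene of the lists for flowering time and for the clock, had a mean of -0.05 ± 0.12. Both MAF4 and MAF5 are known here only through the study's list at 4 weeks, which was selected on these arrays. Their 4-week values were thus selected and their 8-week values were not. The difference of MAF5 between the ages is therefore not independent evidence of an age difference.

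A run of chitinase genes on chromosome 2, noticed after the values were seen, had low values that were weakest in replicate 2. AT2G43580 had -1.29 and -1.75 in replicate 1, -0.07 in replicate 2 and -0.61 in replicate 3, and its neighbour AT2G43570, named CHI, had -0.99, -1.49, -0.14 and -0.48. AT2G43620 had -0.79, -1.10, 0.02 and -0.55. AT2G43590 had -1.10 and -0.08 on the 2 arrays of replicate 1, with -0.51 and -0.60 in the others. Chitinases of this kind cleave the chitin of fungal walls, and at 8 weeks the means of the 4 genes lay between -0.06 and 0.32. Their means at 4 weeks were -0.73, -0.62, -0.49 and -0.57, with an adjusted p of 1 for each. AT2G43580 stands in the study's list for 4 weeks, so that its low value had been selected on these arrays. Other loci of the run that were looked up had no named probe.

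The enzymes of the secondary wall were close to 0 in young stems. Of 48 listed genes for secondary wall cellulose, xylan, mannan and lignin polymerisation, 18 had a named probe. Of these 18, 16 had a mean above 0, against 49.1% of all probes. In all 3 replicates 2 of the 18 were above 0, against 8.91% of all probes. On all 4 arrays 0 of the 18 were above 0, against 4.15% of all probes. Their median log2 ratio was 0.06, beside 0.00 over all probes, and their means ran from -0.25 to 0.18. None was called, and none had an unadjusted p under 0.05. At 8 weeks the same 18 genes had a median of 0.67 and 17 were above 0, against 38% of all probes. At 8 weeks, too, no probe passed the adjusted p and fold thresholds in the limma fit used here (0% called in either direction), whereas the study's own fit listed 223. Of the 18, 11 carry a name only through the study's lists, all through the list for 8 weeks, so that their 8-week values were selected and their 4-week values were not. The 7 genes named by the annotation had medians of 0.00 at 4 weeks and 0.17 at 8 weeks.

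The cellulose synthases CESA4, CESA7 and CESA8 form the complex that makes cellulose of the secondary wall. CESA4 had log2 ratios of -0.16 and -0.16 in replicate 1, 0.12 in replicate 2 and 0.08 in replicate 3, with a mean of 0.01 ± 0.15 (SD, n = 3). CESA7 had 0.16, -0.29, 0.45 and -0.16 with a mean of 0.08 ± 0.33, and CESA8, the gene on which the line had been picked, had -0.42, 0.08, 0.37 and 0.15 with a mean of 0.12 ± 0.27. For all 3 synthases the spread between replicates was larger than the mean. COBL4, a COBRA-like protein of cellulose deposition, had the highest mean of the polymer genes with 0.18 ± 0.34. CTL2, a chitinase-like protein needed for normal cellulose, had 0.04 ± 0.06, although its 2 arrays of replicate 1 read -0.18 and 0.39 before averaging. At 8 weeks these 5 genes had means between 0.70 and 0.88. The means were 0.88 ± 0.96 for CESA4, 0.79 ± 0.75 for CESA7 and 0.71 ± 0.74 for CESA8 (SD, n = 3). COBL4 had 0.70 ± 0.46 and CTL2 0.77 ± 1.04. The spread at 8 weeks was thus larger than the mean for CESA4, CESA8 and CTL2, and smaller for CESA7 and COBL4. Replicate 3 was the highest for each of these genes at 8 weeks.

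Replicate 2 had the highest median among these genes. Over the 18 polymer genes it was 0.16, against -0.05 in replicate 1 and 0.05 in replicate 3, and without replicate 2 the median was -0.01 in place of 0.06. Of the xylan genes, PGSIP1, which adds glucuronic acid to xylan, had 0.66 in replicate 2 and -0.26 in replicate 3, and GXM3, which methylates that glucuronic acid, had 0.58 in replicate 2 and -0.31 and -0.20 in replicate 1. IRX15, needed for normal xylan chain length, had a mean of 0.00 ± 0.03. Its 2 arrays of replicate 1 read -0.25 and 0.25, so that the small SD follows from their averaging. Of the 18 polymer genes, 6 had the same sign on these 2 arrays, as had 17281 of all 37685 probes. The laccases LAC4 and LAC17, which oxidize monolignols for polymerisation, had means of 0.13 ± 0.34 and 0.08 ± 0.08. The lowest polymer gene was the peroxidase PRX21 at -0.25 ± 0.38. MYB103, a MYB protein below SND1 in the fibre network and the only one of 30 listed wall regulators with a named probe, had 0.04, 0.09, 0.18 and -0.04 and a mean of 0.07 ± 0.11. Of the monolignol enzymes, HCT had a mean of 0.01 ± 0.22 and CCR2 -0.54 ± 0.80 with -1.45 in replicate 2.

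**Figure D2:**
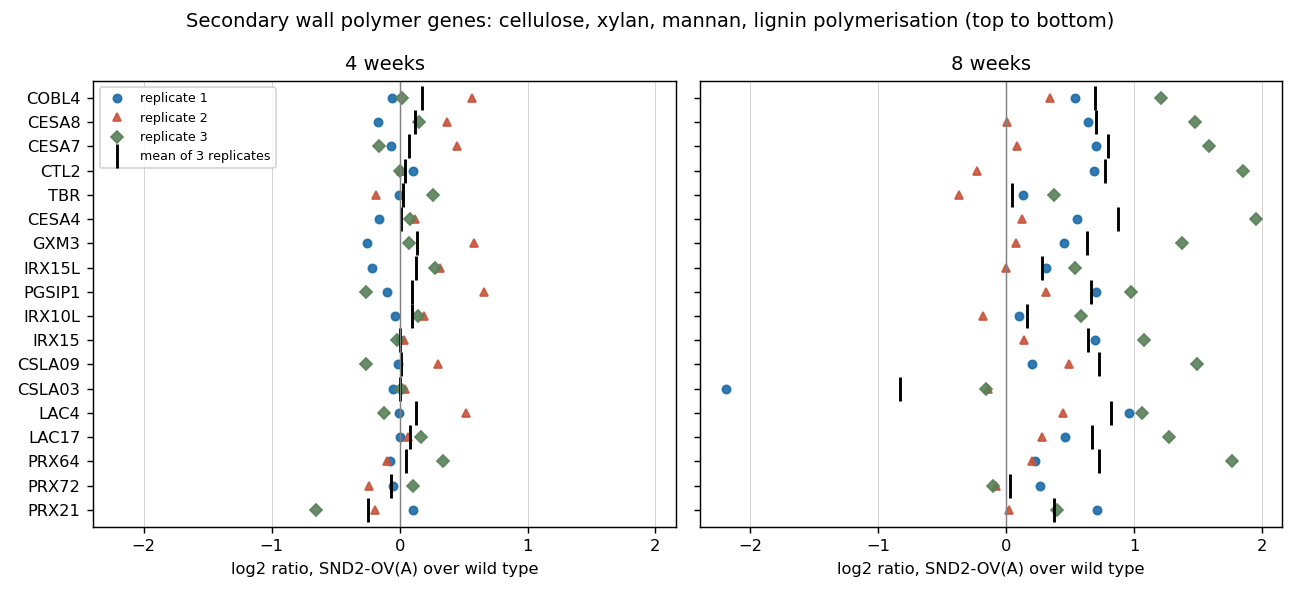
Log2 ratios of the line over the wild type for 18 secondary wall polymer genes at 4 weeks (left) and 8 weeks (right), with points for the 3 replicates and black bars for their mean. At 4 weeks the means lie between -0.25 and 0.18, and at 8 weeks the median over the genes is 0.67.

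Tubulins build the microtubules along which cellulose is laid down. All 8 measured tubulin genes, each named by the annotation, had means between -0.04 for TUB1 and 0.10 for TUA3, with a median of 0.06. None kept one sign in all 3 replicates. PLE, a microtubule-associated protein of the dividing cell plate and the only marker of dividing cells with a name, differed from them in evenness, with 0.52 and 0.63 in replicate 1, 0.51 in replicate 2 and 0.48 in replicate 3. Its mean was 0.52 ± 0.05 (SD, n = 3) at 4 weeks and 1.06 at 8 weeks, and it was named through the list for 8 weeks. Other markers of tissues were few. Of 45 listed markers of epidermis, phloem, cambium, dividing and photosynthetic cells and flower organs, 4 had a name, and the other 3 had means from -0.19 for SWEET11, a sugar exporter of phloem cells, through -0.10 for RCA to 0.06 for LHCB4.1. The epidermis, cambium and flower organ lists had none. The share of tissues in the samples was not tested beyond these genes, and ratios give no level by which the tissue itself could be checked.

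Genes of touch, wounding, jasmonate and abscisic acid varied widely between replicates. Of 64 listed genes 11 had a name, 8 of them only through the study's lists. Of the 11, 10 had a mean below 0, against 50.9% of all probes, and 3 were below 0 in all 3 replicates, against 7.98% of all probes. NCED3, ORA47, EXLA1, WRKY46 and LOX4 stand in the study's list for 4 weeks, which was selected on these arrays. These counts are therefore not a result. The median log2 ratio of the 11 was -0.63 over all replicates and 0.20 without replicate 2. Taken by replicate, it was 0.56 in the first, -2.01 in the second and -0.05 in the third. For the 3 genes named by the annotation, ORA47 among them, the median over all replicates was -0.18. No gene of these lists was called, and none had an unadjusted p under 0.05.

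JAZ7, a repressor of jasmonate signalling whose own transcript is induced by jasmonate, had the widest spread. Its log2 ratios were 1.66 and 1.21 in replicate 1, -3.96 in replicate 2 and 0.62 in replicate 3, and its mean of -0.63 ± 2.90 (SD, n = 3) became 1.03 without replicate 2. LOX4, a lipoxygenase of jasmonate synthesis, had 0.70, 0.41, -3.09 and 0.54, and its mean of -0.66 became 0.55 without replicate 2. The 2 arrays of replicate 1 share their RNA and gave like values for both genes, so that replicate 2 alone lay on the other side of 0. WRKY46, a transcription factor of stress responses, had 0.70, 0.77, -2.46 and -0.34. XTH22, the touch-induced xyloglucan enzyme TCH4, had 1.22, 1.01, -2.01 and 0.49. ORA47, an activator of jasmonate synthesis genes, was low in both single-array replicates, with 1.63, 1.18, -2.12 and -1.88. Its 8-week replicates were spread as widely, at -1.65, 0.27 and 3.74.

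Only a few genes of this group kept one sign. NCED3, the rate-limiting enzyme of abscisic acid synthesis, had -0.77 and -0.51 in replicate 1, -2.27 in replicate 2 and -0.36 in replicate 3, with a mean of -1.09 ± 1.03 (SD, n = 3). EXLA1, an expansin-like protein, had -0.19, -0.08, -2.00 and -0.19 and a mean of -0.77 ± 1.06. COR47, a dehydrin, had a mean of -0.18 ± 0.16 and was named by the annotation. The abscisic acid responsive gene KIN1 was split by dye, with -0.87 and -0.77 where the line was in Cy3 and 0.44 and 0.61 where it was in Cy5. BT2, a BTB and TAZ domain protein, had -2.05 in replicate 2 and between -0.25 and 0.17 on the other arrays, and its relative BT5 had 0.61, 0.61, -0.76 and 0.10. Over the 11 genes the dye-swapped arrays of replicate 1 differed by a median of 0.26, as they did over all probes, whereas the range over the 3 replicates had a median of 2.08, against 0.44 over all probes.

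**Figure D3:**
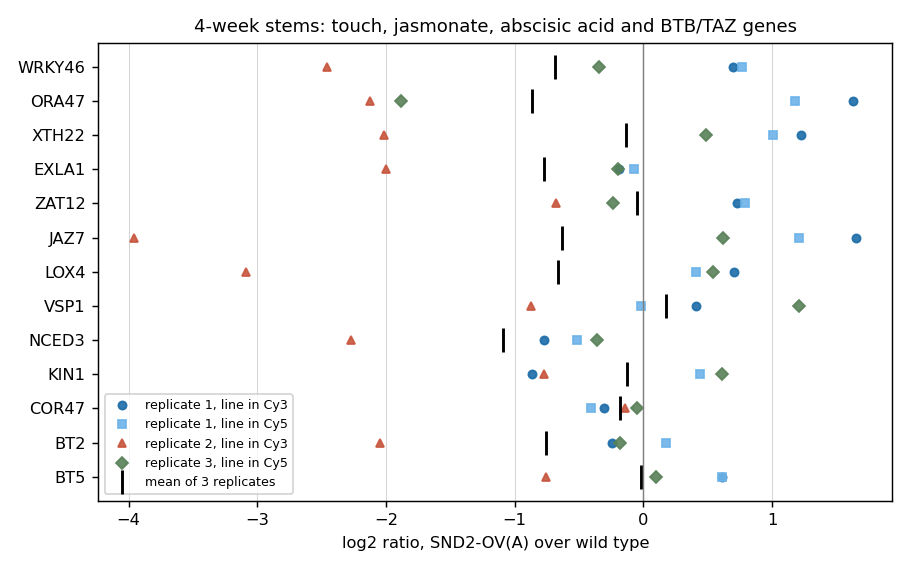
Log2 ratios of the line over the wild type in 4-week stems for genes of touch and early stress (WRKY46 to ZAT12), jasmonate (JAZ7 to VSP1), abscisic acid (NCED3 to COR47) and the BTB and TAZ family (BT2 and BT5), with a point per array and black bars for the mean of 3 replicates. Replicate 2 lies at -3.96 for JAZ7 and -3.09 for LOX4, while both arrays of replicate 1 lie above 0.

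The same imbalance ran through the genes that the study listed at 4 weeks. Of the 24 named probes of that list with a mean below 0, 16 lay farthest from 0 in replicate 2, and 11 of the 24 were below 0 on all 4 arrays. Among all 571 probes with a mean more than 1.5-fold lower, 28.4% lay farthest from 0 in replicate 2. NCED3, ORA47, EXLA1, WRKY46 and LOX4, described above, are among the 24. Their median was -2.02 in replicate 2, against -0.54 in replicate 1 and -0.56 in replicate 3. The 19 named probes of the list above 0 other than SND2 were above 0 on all 4 arrays without exception, with medians of 0.78, 1.00 and 0.65 in the 3 replicates. The list was chosen on these arrays, so that the sign of its genes is not a result. Among probes named by the annotation, which no value chose, 6 of 7440 were above 0 on all 4 arrays by more than 1.5-fold (0.0806%) and 16 were below 0 (0.215%), against 0.167% and 0.332% of all probes.

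Some further genes stood out in a single replicate. FSD1, an iron superoxide dismutase that plants make when copper is short, had -1.95 and -2.25 on the 2 arrays of replicate 1, -0.23 in replicate 2 and 0.13 in replicate 3. PDF1.3, a plant defensin, had -1.82 in replicate 3 against -0.77, -0.42 and 0.16 on the other arrays. The nitrate reductases NIA1 and NIA2 and the nitrite reductase NIR1, the whole of the nitrate assimilation list, had means of -0.42 ± 0.80, -0.11 ± 0.45 and -0.26 ± 0.44 (SD, n = 3). In replicate 3 these 3 genes were at -1.33, -0.55 and -0.77, and without replicate 3 the median of the list was 0.04 in place of -0.26. Of the salicylic acid genes, the glucanase PR2 had a mean of -0.31 ± 0.52 and NIMIN1 one of 0.22 ± 0.36. For none of these genes did the replicates keep one sign.

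Families of genes that share a symbol were close to 0. The annotation held 22 reported families with at least 5 named genes, 212 genes in all, and the family medians ran from -0.06 to 0.07, with 12 above 0. The lowest medians were those of the PUB genes of plant U-box ubiquitin ligases, at -0.06 over 9 genes, and the SCPL serine carboxypeptidase-like genes, at -0.05 over 13 genes. The SCPL genes had means from -0.29 to 0.18 and 4 members below 0 in all 3 replicates, against 7.98% of all probes.

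The highest medians were those of the BGLU beta-glucosidases, at 0.07 over 11 genes, the XTH xyloglucan enzymes, at 0.06 over 6 genes, and the CHR chromatin remodelling genes, at 0.06 over 7. Of the BGLU genes 9 had a mean above 0, and 2, BGLU16 and BGLU24, were above 0 in all 3 replicates with means of 0.12 and 0.07, against 49.1% and 8.91% of all probes. The XTH median was 0.15, -0.26 and 0.07 in replicates 1 to 3, and its highest member XTH21 had 2.37 in replicate 3 and values from -0.42 to -0.02 elsewhere. CHR40 was likewise set by 1.74 in replicate 3, and CHR34 by -2.70 on the Cy3 array of replicate 1. No member of the 22 families had an unadjusted p under 0.05 in limma. In 20 of the 22 families the 3 replicate medians lay on both sides of 0.

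**Figure D4:**
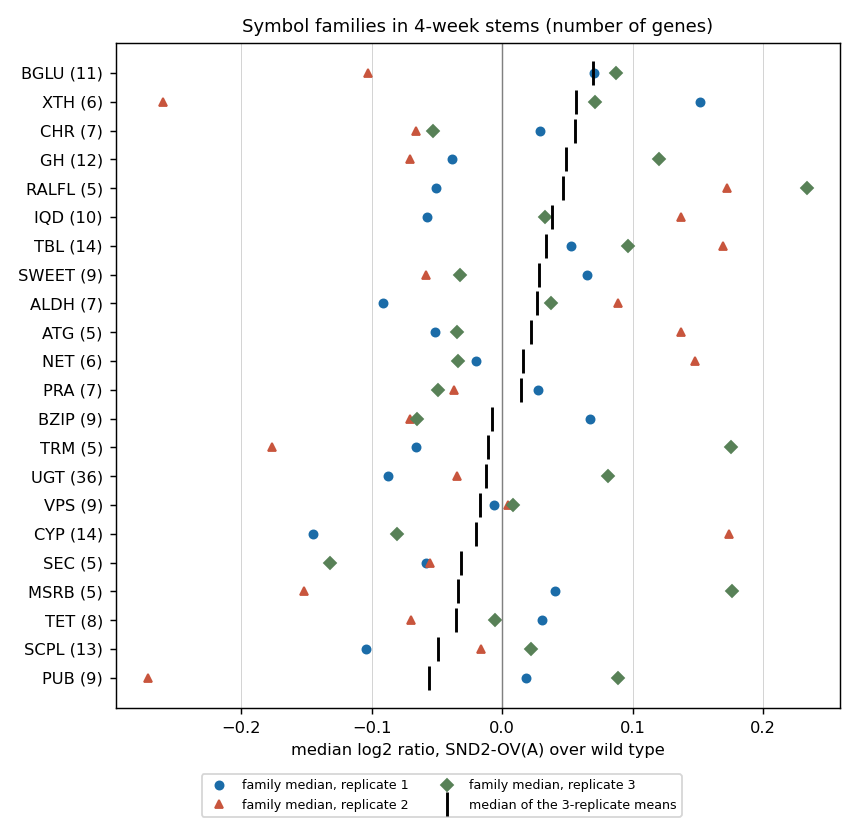
Median log2 ratio of the line over the wild type in 4-week stems for 22 symbol families (number of genes in brackets), with points for the median in each of the 3 replicates and black bars for the median of the mean over replicates. The bars run from -0.06 for PUB to 0.07 for BGLU, and most families have replicate medians on both sides of 0.

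The young stems were set against the old ones to see which values belong to one age. Probes that were higher in all 3 replicates at 8 weeks by more than 1.5-fold numbered 105 (0.279%), and at 4 weeks 72 of them (68.6%) had a mean above 0 and 32 (30.5%) were above 0 in all 3 replicates, against 49.1% and 8.91% of all probes. Their median was 0.10 at 4 weeks and 0.79 at 8 weeks. Of 648 probes lower at 8 weeks by the same rule (1.72%), 353 (54.5%) had a mean below 0 at 4 weeks and 74 (11.4%) were below 0 in all 3 replicates, against 50.9% and 7.98% of all probes, with medians of -0.03 and -0.80. In the other direction, the 63 probes above 0 on all 4 arrays at 4 weeks by more than 1.5-fold had a median of 0.06 at 8 weeks, and 21 of them (33.3%) were above 0 in all 3 of its replicates, against 7.73% of all probes. The 125 below 0 had a median of -0.07, and 37 (29.6%) were below 0 in all 3, against 18.3% of all probes.

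Single genes differed in how they stood at the 2 ages, although no probe passed the test of the difference (limma, 0% called, smallest adjusted p of 1). At an unadjusted p under 0.05 the 4-week ratio was the higher for 389 probes (1.03%) and the lower for 214 (0.568%). Besides SND2, the named genes with the largest moderated t of the difference were mostly near 0 at 4 weeks. One probe of AT1G71370, a DEAD-box RNA helicase, had a mean of 0.08 ± 0.05 at 4 weeks and 1.08 ± 0.15 at 8 weeks (SD, n = 3 each), while its second probe had -0.01 and -0.10. AT4G15700, a glutaredoxin, had -0.27 ± 0.27 and 0.77 ± 0.24 at the same ages, and the lipid transfer protein gene LTP5 had 0.11 ± 0.24 and 1.08 ± 0.21. FDM4, a homologue of a protein of RNA-directed DNA methylation, was above 0 on all 4 arrays at 4 weeks with a mean of 0.46 ± 0.12, and stood at 1.15 ± 0.03 at 8 weeks. LCR68, of the defensin-like family, had -0.04 ± 0.13 and 0.65 ± 0.03. MEE66 and AT2G33793 were above 0 on all arrays of both ages, with means of 0.36 and 0.43 at 4 weeks and 1.19 and 1.46 at 8 weeks. In the opposite sense MLP28, a major latex protein-like gene, had 0.19 ± 0.04 at 4 weeks and -1.26 ± 0.40 at 8 weeks, and the apyrase gene AT1G14250 had 0.18 ± 0.32 and -1.25 ± 0.31. All of these stand in the study's list for 8 weeks, so that their 8-week values had been selected.

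**Figure D5:**
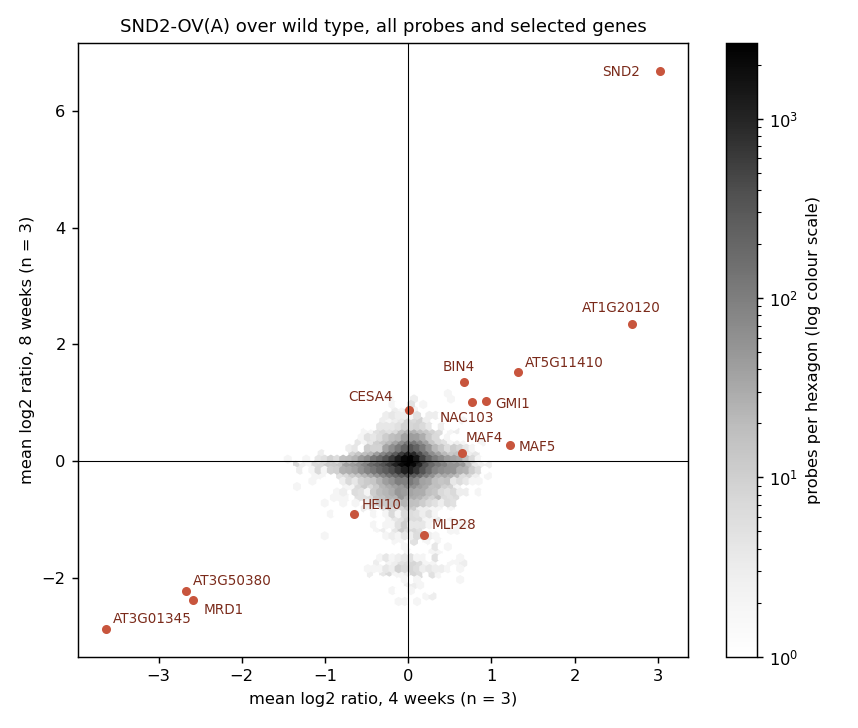
Mean log2 ratio of the line over the wild type at 4 weeks (x axis) against 8 weeks (y axis) over 3 replicates each, for all 37685 probes (grey, log colour scale) and 14 named genes (red). AT1G20120, AT5G11410, GMI1, NAC103, AT3G01345, AT3G50380 and MRD1 lie off 0 at both ages, MAF5 mainly at 4 weeks (1.22 against 0.27) and CESA4 at 8 weeks (0.01 against 0.88).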

How the data were processed

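Features had been extracted by the authors in GenePix Pro from Axon scans and normalized in limma. Each deposited value is the log2 of line over wild type for a probe on an array, and the direction was checked on the study's lists, whose fold changes matched the means at 4 weeks within 0.001 for all 45 probes and those at 8 weeks for 188 of 223, with the same sign for all 223. Probes with no value did not occur and none was filtered. The dye-swapped arrays of replicate 1 were averaged as 1 replicate, which left n = 3.

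Means of the 3 ratios were tested against 0 in limma 3.58.1 under R 4.3.3 (lmFit with an intercept, then eBayes), two-sided, and p-values were adjusted over 37685 probes by Benjamini-Hochberg. The call required an adjusted p under 0.05 and a fold over 1.5. The difference, 4 minus 8 weeks, was fitted to 6 ratios. The methods describe each replicate as its own pool of plants. The fit was tested on simulated data. All 7440 annotated probes matched RefSeq (TAIR10.1) by gene ID, which served for names and gene order. Beyond the check of direction, columns of fold changes and p-values in the study's lists were used for no result. Fibre and wall measurements, RT-qPCR and GO classes were not analysed here.

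Named genes were SND2, the measured members of the gene lists with the highest and lowest means, the 15 highest and 15 lowest named probes with one sign on all 4 arrays, the 10 highest and 10 lowest by moderated t, the measured FLC and MAF genes, members of the families with the 3 highest and 3 lowest medians (2 families are not reported here), the 10 largest differences between ages, and neighbours in gene order. Further list members are named where a list is described. Some genes that met these rules are not described in the text, among them RLP49, AT5G43910, AT3G11680 and AT1G62510. The members, lists and rules were chosen with earlier results of these data known. Alternatives covered the dye-swapped pair, a dye term, centring, scaling, quantile normalization, the estimate of the spread, the thresholds, averaging per gene, the replicate number as a block and leaving out each replicate. Those added after seeing the data were list medians over genes named by the annotation, and, for the count of probes with one sign in all replicates, centring and leaving out replicates.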

Additional observations from a re-analysis of the deposited data

Results flagged for a closer look

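MLP28 stood out because every replicate moved one way at 4 weeks and the other way at 8 weeks. Its replicate log2 ratios were 0.24, 0.15 and 0.18 at 4 weeks, against -1.63, -0.84 and -1.32 at 8 weeks. The difference of 1.45, 4 minus 8 weeks, did not pass in the limma fit of both ages (adjusted p = 1), and the gene had been listed by the study for its 8-week value. Groups of 3 replicates were too small for the check on single samples far from the others.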

How the results depend on the processing

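The count of 0 called probes at 4 weeks became 2 with both ages in one fit. It became 3 with named probes averaged per gene, a setting in which 7418 rather than 37685 tests were adjusted. Of those 3 genes, MRD1 and SND2 were in the set only through the study's lists. The count stayed at 0 under the 12 other settings that could be fitted, and was 0 without each replicate in turn. Their unadjusted counts at p under 0.05 in limma ran from 214 to 1605. A fit of 4 arrays with replicate as a random block could not be fitted, because no block correlation could be estimated. The 337 probes with one sign in all 3 replicates by over 1.5-fold became 46 at over 2-fold and 188 with one sign on all 4 arrays, and 791 to 1798 without one replicate, where only 2 replicates had to agree. The difference between the ages gave 0 calls under every setting, also without each replicate number. With the replicate number as a block it gave 0 calls, and 843 rather than 603 probes had an unadjusted p under 0.05. Deviations of same-numbered replicates correlated between the ages at -0.02, 0.12 and 0.16, so that the numbers were not taken to pair the samples. Of 115 probes of named genes, 42 turned sign under at least 1 of 8 settings, among them 6 of the 60 with an absolute mean over 0.5. Those 6 were JAZ7, LOX4, WRKY46, AT4G27654, AT1G53903 and AT1G61890, with means of 1.03, 0.55, 0.20, 0.09, 0.45 and 0.12 without replicate 2. The causes were not tested.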
